A study of Mus musculus with 53 samples.

Results

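Chaperone genes were chosen by name: every protein-coding gene of the mouse annotation whose symbol marks it as a heat shock protein of the HSP90, HSP70, HSP110, HSP60, HSP10 or small HSP kind, a J protein of class A, B or C, a subunit of the cytosolic chaperonin CCT, or a subunit of prefoldin. The rule gave 86 genes, of which 85 had a value among the 37991 gene IDs of the table. Hspa14 alone had none under its own ID. The values come from the cerebral cortex of untreated C57bl/6 mouse embryos at E16.5, whole tissue with no stimulation, for which the labels give 3 libraries. The authors deposited 1 mean value for each gene, in RPKM, that is, reads counted on the gene, scaled to its length in kilobases and to the library's total reads. The wider series, on neuronal activity and histone turnover, holds 53 libraries in 19 groups, of which 50 libraries in 18 groups were not used here. With 1 mean column there is no SD and no test, and no value below says how much 1 embryo differed from another. The labels do not say whether each library was a different embryo or litter. The labels give no heat or drug treatment for these embryos, and whether dissection changed the levels was not tested.

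Chaperones bind proteins that are not yet folded or have come unfolded and keep them from clumping. HSP70 proteins hold short stretches of such chains under control of ATP, J proteins bring clients to HSP70 and set off its ATP use, HSP110 proteins exchange its nucleotide, HSP90 takes over late folding of kinases and receptors, small HSPs hold unfolded chains without ATP, and the CCT ring closes around actin and tubulin that prefoldin delivers. Some of these genes run at all times in every cell, while others are switched on when heat shock factor 1 binds heat shock elements, repeats of the unit GAA and its reverse TTC, ahead of the gene.

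The stretches ahead of these genes are shown first because they carry the sequence that distinguishes inducible chaperone genes in textbooks. RefSeq promoter windows (GRCm38.p6, 250 bases before the start and 50 after) were held for 70 members and not for the other 16, among them Hspa8, Hsp90ab1 and Hsp90aa1. Each run below is the 150 bases that end at the start of the gene, 5′ to 3′ on the gene's strand, with the matched motif in capitals. The inducible HSP70 gene Hspa1b (chr17:34959239-34959388, minus strand) and the small HSP gene Hspb1 (chr5:135887769-135887918, plus strand) hold pairs of heat shock units. Hspe1, the mitochondrial HSP10 gene (chr1:55087998-55088147, plus strand), and the class B J protein gene Dnajb6 (chr5:29735829-29735978, plus strand) hold triples. The endoplasmic reticulum (ER) genes Hspa5 (chr2:34771940-34772089, plus strand) and Hsp90b1 (chr10:86705445-86705594, minus strand) hold the ER stress response element, a CCAAT box 9 bases from CCACG, of which only those outer boxes are in capitals.
Hspa1b: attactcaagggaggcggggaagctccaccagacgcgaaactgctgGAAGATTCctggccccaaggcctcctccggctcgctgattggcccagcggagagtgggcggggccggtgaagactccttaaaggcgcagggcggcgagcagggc
Hspb1: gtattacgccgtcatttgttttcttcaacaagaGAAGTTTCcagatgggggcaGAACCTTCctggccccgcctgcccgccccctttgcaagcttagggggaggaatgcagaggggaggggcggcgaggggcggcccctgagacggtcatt
Hspe1: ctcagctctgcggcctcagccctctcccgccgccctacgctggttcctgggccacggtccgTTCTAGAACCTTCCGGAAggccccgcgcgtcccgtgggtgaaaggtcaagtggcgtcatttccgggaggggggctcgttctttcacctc
Dnajb6: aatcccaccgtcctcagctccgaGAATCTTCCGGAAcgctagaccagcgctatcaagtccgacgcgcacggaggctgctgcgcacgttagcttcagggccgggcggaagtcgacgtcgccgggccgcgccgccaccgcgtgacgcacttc
Hspa5: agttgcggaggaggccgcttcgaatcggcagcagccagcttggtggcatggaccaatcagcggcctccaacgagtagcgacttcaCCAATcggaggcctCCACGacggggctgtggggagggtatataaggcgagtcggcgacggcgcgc
Hsp90b1: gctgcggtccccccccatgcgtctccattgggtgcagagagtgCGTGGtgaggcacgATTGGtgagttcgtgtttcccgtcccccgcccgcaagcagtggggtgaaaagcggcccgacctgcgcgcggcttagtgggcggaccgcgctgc

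Pairs of units were searched as GAANNTTC and TTCNNGAA, each of which reads the same on both strands. Of the stress-inducible genes with a window, 7 of 8 (87.5%) held a pair, the exception being Dnajb1. Of the constitutive cytosolic genes, 1 of 6 (16.7%) held one, Dnajb6. Among all 27025 genes with a window the share was 17.0%, and among the members it was 19 of 70 (27.1%). A gene counted if any of its windows matched, and some genes have several. By window, the shares were 61.5% of 13 for the stress-inducible genes, 22.2% of 9 for the constitutive genes and 15.1% of 32851 for all genes. Several matches lie within the gene's first bases: that of Hspb8 begins 2 bases past the start. Triples (GAANNTTCNNGAA or TTCNNGAANNTTC, both strands, which contain pairs) were held by 0.662% of all genes and by 4 members: Hsph1, Dnajb6, Hspd1 and Hspe1. Hspd1 and Hspe1 lie head to head, so theirs is 1 stretch counted from either side. The ER stress response element (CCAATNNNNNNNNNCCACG or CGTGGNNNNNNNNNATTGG, both strands) was held by 0.137% of all genes and by 3 members, Hspa5, Hsp90b1 and Dnajc3, all of them among the 6 ER stress genes. A match is a run of letters in this window and no evidence of binding, and a window without one says nothing of elements farther away.

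Chaperone genes as a set stood above the typical protein-coding gene of this tissue. Of the 85 members, 44 reached 1 RPKM or more (51.8%), against 31.6% of the 20214 protein-coding genes with a value. Levels of 10 RPKM or more were reached by 19 members, against 4.50% of all, and levels of 100 RPKM or more by 2 members, against 0.376% of all. The median member stood at 1.44 RPKM and the median protein-coding gene at 0.214 RPKM. At the other end, 12 members were under 0.1 RPKM. The highest of these, Cct8l1 at 0.0998 RPKM, lay above 44.1% of all protein-coding genes, so such levels were common in the background. Dnajb8 alone was listed at 0, as were 15.2% of all protein-coding genes. The sum of the members was 1.20% of the summed RPKM of the table, and 54.9% of it came from only 2 genes, Hsp90ab1 and Hspa8. The set was thus uneven, with the 10 highest members holding 75.5% of its sum.

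**Figure D1:**
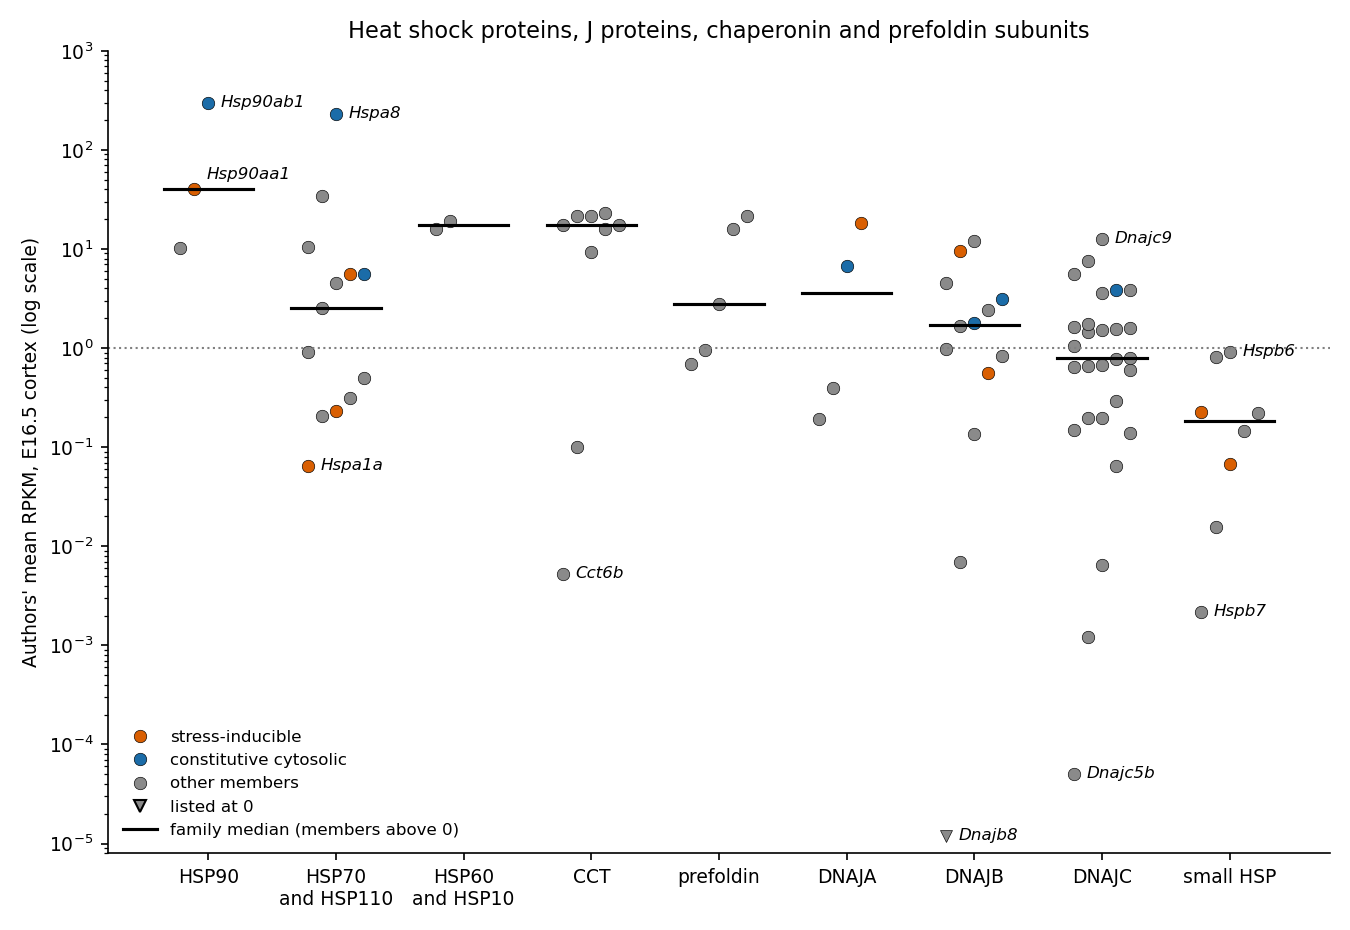
Each point is 1 member in its family on a log axis of the authors' mean RPKM, orange for stress-inducible, blue for constitutive cytosolic and grey for other members, with black lines at the medians of members above 0. The highest points are Hsp90ab1 at 300.4 RPKM and Hspa8 at 231 RPKM, all 8 small HSPs lie under the dotted line at 1 RPKM, and Dnajb8, listed at 0, is drawn as a triangle at the foot.

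How the values were made bears on every comparison between genes. The low values of the table fell on the steps that single reads would make when each gene was divided by its whole span, introns included (662 of 774 values, 85.5%). With division by exons, 35 of 1136 (3.08%) fell on those same steps. The steps were found with spans and not searched for anew with exons, so the exon share is no separate test. The steps gave 51.3, 64.8 and 71.6 M reads for the 3 libraries. Were only exon reads counted, a gene with long introns would have a lower RPKM than its messenger RNA would give. Levels are thus also given as RPM (reads scaled to the library total) per kilobase of the principal transcript, called transcript-scaled levels. Whether intron reads were counted is not stated, and if they were, this scale reads too high for genes with long introns. On that scale 66 members reached 1 or more, against 56.6% of all protein-coding genes, and 44 reached 10 or more, against 29.3%. These rest on spans from a later annotation than the authors' own. For 53 of the 85 members the spans of GENCODE M21 and RefSeq differed by at most 5%, and for others both values are given where they matter.

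In RPKM the stress-inducible genes fell into a high and a low tier, while all measured constitutive cytosolic genes were present. Of 9 stress-inducible members 4 (44.4%) reached 1 RPKM, against 31.6% of all protein-coding genes, and the median of the 9 was 0.560 RPKM. Of 7 measured constitutive members 7 reached 1 RPKM, and their median was 5.64 RPKM. The same 31.6% is the background for the counts at 1 RPKM of the other lists below. The inducible median was lower by 3.12 on the log2(RPKM + 0.1) scale, a scale that understates differences among low genes. Only 3 inducible members lay above the constitutive median, and 5 lay below the lowest constitutive member. The difference in medians is set by which tier holds the middle gene: with the near-identical genes Hspa1a and Hspa1b left out, the inducible median became 5.60 RPKM and the difference -0.011, and among members at 1 RPKM or more it turned to 1.22, with an inducible median of 13.98 RPKM.

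**Figure D2:**
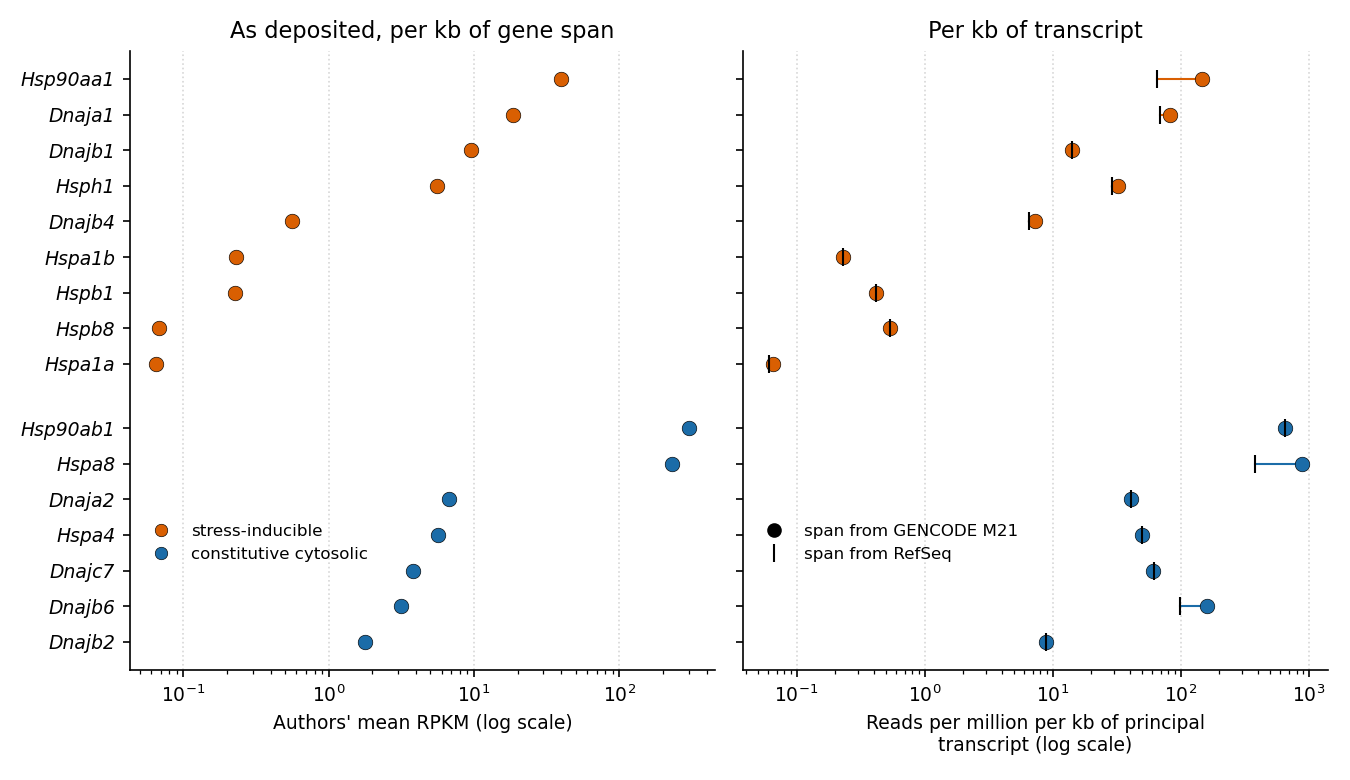
Authors' mean RPKM (left, log axis) and transcript-scaled level (right, log axis, circle with the GENCODE M21 span and tick with the RefSeq span) for the 9 stress-inducible genes above the 7 measured constitutive cytosolic genes. The inducible genes run between 0.0652 and 39.9 RPKM with a gap between Dnajb4 and Hsph1, and the constitutive genes between 1.77 and 300.4 RPKM.

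The high tier of the inducible list was made of HSP90, J proteins and HSP110. Hsp90aa1, the inducible cytosolic HSP90, stood at 39.9 RPKM, rank 203 among protein-coding genes. Dnaja1, a class A J protein, stood at 18.4 RPKM. Dnajb1, the class B J protein known as HSP40, stood at 9.53 RPKM, and Hsph1, the inducible HSP110, at 5.60 RPKM. On the transcript scale these 4 read 147, 81.9, 14.2 and 32.5, in that order of genes, so Hsph1 lay above Dnajb1 there. For Hsp90aa1 the RefSeq span gives 65.1 on the transcript scale in place of 147.

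The low tier held the 2 classic inducible HSP70 genes and the small HSPs of the list. Dnajb4, the list's median gene, stood at 0.560 RPKM, on the low side of the gap between the tiers. On the transcript scale it read 7.22, between Hspb8 at 0.534 and Dnajb1 at 14.2, and on a log axis nearer to Dnajb1. The tier of Dnajb4 thus depends on the length. Its percentile among protein-coding genes was 60.5 in RPKM and 64.9 on the transcript scale, where most genes read higher: the median of those above 0 was 0.450 RPKM and 4.55 there. Hspa1b stood at 0.232 RPKM, an estimated 122 reads over the 3 libraries (95% Poisson interval 101 to 146). Hspa1a stood at 0.0652 RPKM, about 36.3 reads (25.2 to 49.8). Hspb1, the small HSP also called Hsp25 in mice, stood at 0.228 RPKM, about 70.3 reads (54.6 to 88.4), and Hspb8 at 0.0675 RPKM, about 182 reads (157 to 210). All 4 stayed under 1 on the transcript scale as well. These intervals cover counting error only. Among all protein-coding genes, Hspb1 and Hspa1b lay near the middle (percentiles 50.6 and 50.8) and Hspb8 and Hspa1a under it (41.4 and 41.1) in RPKM. On the transcript scale all 4 lay lower, at percentiles 38.1 for Hspb1, 35 for Hspa1b, 39.6 for Hspb8 and 28.5 for Hspa1a. Hspa1a and Hspa1b read 0.0652 and 0.232 on both scales, so their percentiles fell because other genes read higher. Were intron reads counted, that scale would read too high for genes with long introns and place these 2 too low.

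Some of these low values are uncertain because other genes share the sequence. Of the 50-base stretches of its transcript, 66.3% in Hspa1a, 62.3% in Hspa1b and 60.4% in Hspb1 also occur in another gene, for Hspb1 mostly in the pseudogene Hsp25-ps1. How reads that fit several places were treated is not stated. Were every such read lost, dividing by the unshared share would put Hspa1a at 0.194, Hspa1b at 0.615 and Hspb1 at 0.575 RPKM, all still under 1 RPKM. Hspb1 is also made by blood vessel cells. Of 5 endothelial markers 1, Cldn5 at 17.3 RPKM, was over 1 RPKM, and the other 4 lay between 0.10 and 0.570 RPKM. On the transcript scale all 5 read 1 or more, between 2.39 and 17.3, against 0.415 for Hspb1. The part of vessel cells in the Hspb1 value was not tested. In such bulk tissue, fewer cells of a type and less RNA per cell cannot be told apart.

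The constitutive cytosolic genes were headed by the HSP90 and HSP70 genes that serve the cytosol of all cells. Hsp90ab1, the constitutive HSP90, stood at 300.4 RPKM, rank 24 among protein-coding genes, and Hspa8, the constitutive HSP70 also called Hsc70, at 231 RPKM, rank 28. Which of them was higher depends on the length: Hsp90ab1 read 655 on the transcript scale, and Hspa8 read 880 with the GENCODE span but 379 with the RefSeq span. Hspa8 shares 74.8% of its stretches with other genes, chiefly 1 pseudogene, and its introns hold small nucleolar RNA genes. The other 5 were lower, within 1.77 to 6.73 RPKM, but far apart on the transcript scale, from 8.88 for Dnajb2 to 161 for Dnajb6. Dnaja2, a class A J protein, stood at 6.73 RPKM, Hspa4, the constitutive HSP110 also called Apg-2, at 5.64, Dnajc7, a J protein with tetratricopeptide repeats, at 3.82, Dnajb6, a suppressor of aggregation, at 3.13 and Dnajb2, a J protein prominent in neurons, at 1.77 RPKM. Dnajb6 is a long gene, and even with the RefSeq span, which gives 98.6 in place of 161, it lay above all the other constitutive genes but Hsp90ab1 and Hspa8.

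Set against their constitutive relatives one by one, the inducible genes ran from above their relative to over 3 orders of magnitude below it. Hspa1a was 3547-fold and Hspa1b 998-fold lower than Hspa8 in RPKM. On the transcript scale they were 13492-fold and 3797-fold lower, or 6171-fold and 1634-fold with RefSeq spans. Even with all shared reads of the inducible genes taken as lost and those of Hspa8 not, the gaps in RPKM were 1195-fold and 376-fold. Hsp90aa1 was 7.54-fold lower than Hsp90ab1 in RPKM, and 4.45-fold or 10.04-fold lower on the transcript scale with one span or the other. Hsph1 and Hspa4 stood level in RPKM, with a ratio of 0.992, and at 0.655 on the transcript scale. The J protein pairs ran the other way in RPKM, with Dnaja1 2.74-fold above Dnaja2 and Dnajb1 3.05-fold above Dnajb6. For the second pair the order rests on the length, since Dnajb1 to Dnajb6 was 0.0883 on the transcript scale, and for the first it was 2.00 there but 0.799 per kilobase of all annotated exons. Among the inducible genes of these pairs, Hsp90aa1 shares 58.5% and Dnaja1 30.6% of its stretches with other genes, and so does Dnajb6 for 41.9%. The HSP70 and HSP90 pairs kept their direction on every length tried.

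The other HSP70 relatives lay far below Hspa8 on both scales, but their own order changed with the length. Hspa2 and Hspa1l, HSP70 genes best known from the testis, stood at 0.493 and 0.316 RPKM. Hspa4l, another HSP110, stood at 0.917 RPKM, 6.15-fold lower than Hspa4 and 9.95-fold lower on the transcript scale. Hspa12a, a distant HSP70 relative known for its brain expression, stood at 2.53 RPKM, and Hspa12b, its relative from blood vessels, at 0.204 RPKM, a ratio of 0.0807 in RPKM and 0.0175 on the transcript scale. Hspa12a has a long span, and at 65.3 on the transcript scale it came next after Hspa8 in the family, above Hspa9 at 58.3, Hspa5 at 52.5 and Hspa4 at 49.7. Hspa13, an HSP70 relative of the ER membrane, stood at 4.49 RPKM.

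The chaperones of the ER were well represented in this tissue, with a median of 3.1 RPKM over 6 genes. Of these, 5 (83.3%) reached 1 RPKM, against 31.6% of all protein-coding genes. Hspa5, the ER HSP70 called BiP, stood at 34.5 RPKM, and Hsp90b1, the ER HSP90 called Grp94, at 10.3 RPKM. Hspa5 was 6.70-fold lower than Hspa8 in RPKM, and 16.8-fold or, with RefSeq spans, 9.09-fold lower on the transcript scale. Hsp90b1 was 29.0-fold lower than Hsp90ab1 in RPKM, and 11.7-fold or 12.2-fold lower on the transcript scale. Which of the 2 gaps is wider thus depends on the length. Among the ER J proteins, Dnajb9 stood at 4.53, Dnajb11 at 1.67, Dnajc10 at 1.61 and Dnajc3 at 0.603 RPKM. The 3 genes with an ER stress response element were the highest pair, Hspa5 and Hsp90b1, and the lowest, Dnajc3. On the transcript scale Hsp90b1 at 56.0 lay above Hspa5 at 52.5, and Dnajc3 at 5.13 remained the lowest. Beyond the members, 13 of 15 other genes of ER folding and the unfolded protein response reached 1 RPKM, led by the lectin chaperone Calr at 49.1 RPKM and the stress transcription factor Atf4 at 42.6 RPKM (114 and 58.2 on the transcript scale).

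Mitochondrial chaperones had a median of 3.52 RPKM, and 5 of 8 (62.5%) reached 1 RPKM, against 31.6% of all protein-coding genes. The folding chamber Hspd1 (HSP60) stood at 15.8 RPKM and its lid Hspe1 (HSP10) at 19.0 RPKM, a ratio of 0.832, and at 67.8 and 77.9 on the transcript scale. The order turned with other lengths, to a ratio of 1.52 per kilobase of all annotated exons and 2.73 in RPM with no length. These 2 genes overlap at their shared promoter, and each shares 44.8% of its stretches with other genes, so their balance is uncertain on this count too. Hspa9, the mitochondrial HSP70 called mortalin, stood at 10.5 RPKM. The mitochondrial J proteins were lower: Dnajc30 at 5.53, Dnajc11 at 1.51, Dnajc19 at 0.646, Dnaja3 at 0.394 and Dnajc15 at 0.150 RPKM. Dnajc30 is a short gene that overlaps Bud23 on the opposite strand, and it was among the lower ones on the transcript scale, at 5.53 or 3.86, against 24.8 for Dnajc19, a part of the import motor.

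The 7 CCT ring subunits among the members lay close together. They stood at 23.3 RPKM for Cct5, 21.3 each for Cct2 and Tcp1, 17.4 for Cct8, 17.3 for Cct4, 16.0 for Cct7 and 9.30 for Cct3. The coefficient of variation over these 7 was 25.9%, and it was 20.9% on the transcript scale, where they ran between 81.5 and 139. Their principal transcripts are of like size, 1853 to 2484 bases. Counted as RPM with no length, they lay between 199 and 273, a 1.37-fold range, and Cct3 no longer stood apart. The coefficient of variation was then 11.7%, but 44.6% per kilobase of all annotated exons. The eighth subunit gene, Cct6a, is not annotated as protein-coding in GENCODE M21 and so is no member. It stood at 7.24 RPKM, with an annotated span of 59374 bases, against at most 24652 for the other ring genes, and at 430 RPM. With it the RPM range of the ring was 2.16-fold and its coefficient of variation 27.4%, so the evenness holds for the 7 members and less for the whole ring. On the transcript scale Cct6a read 1046, over an annotated principal transcript of only 411 bases. The coefficient of variation of the whole ring was 146% there. The testis relative of Cct6a, Cct6b, stood at 0.00524 RPKM, and the CCT-like gene Cct8l1 at 0.0998 RPKM. For scale, the 7 alpha subunits of the proteasome ring, chosen after the values of the members were seen, had a coefficient of variation of 69.0% in RPKM, 35.7% on the transcript scale and 50.4% per kilobase of all annotated exons, the last close to that of the 7 CCT genes.

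Prefoldin, which hands chains to CCT, was less even. Pfdn6 stood at 21.7 RPKM, Pfdn5 at 15.9, Pfdn2 at 2.75, Pfdn4 at 0.955 and Pfdn1 at 0.696 RPKM, a 31.2-fold range. The range narrowed on the transcript scale, which ran from 21.6 for Pfdn2 to 86.4 for Pfdn5, a 4.0-fold range, though only 2 of these 5 genes have spans that differ by at most 5% between annotations. Vbp1, which encodes prefoldin subunit 3 under another name and so is no member, stood at 4.23 RPKM and 54.8 on the transcript scale. On that scale every prefoldin subunit but Pfdn5 lay below every CCT subunit, Tcp1 at 81.5 being the lowest of the ring. Pfdn2, Pfdn4 and Pfdn5 share over 20% of their stretches with overlapping genes or copies.

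**Figure D3:**
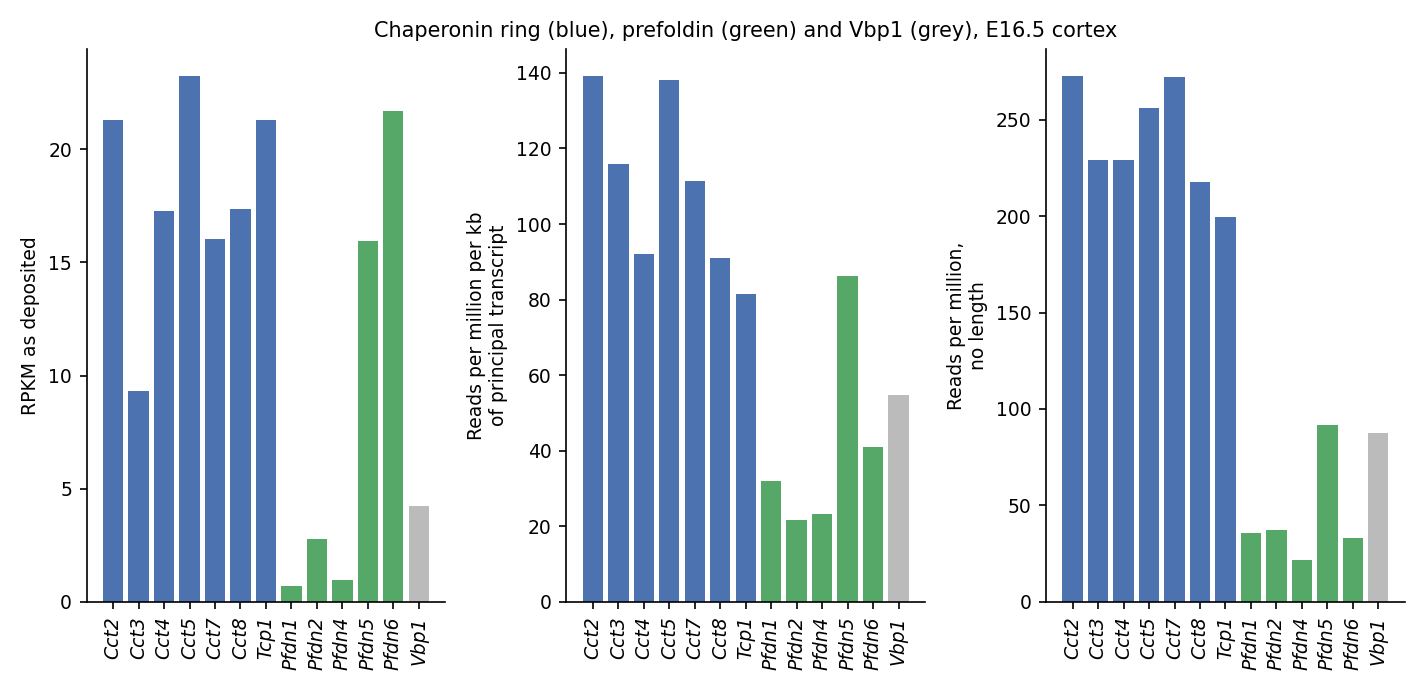
Bars from 0 give each CCT subunit (blue), prefoldin subunit (green) and Vbp1 (grey) as RPKM (left), RPM per kilobase of principal transcript (middle) and RPM (right). The CCT bars lie between 199 and 273 RPM, and the fall between Pfdn6 and Pfdn1 in RPKM shrinks on the other scales.

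J proteins were the most numerous members, and 22 of 45 reached 1 RPKM, against 31.6% of all protein-coding genes. Family medians over genes above 0 were 3.56 RPKM for class A, 1.72 for class B and 0.786 for class C. The gap between classes B and C closed or turned with other lengths: their medians were 8.0 and 7.82 on the transcript scale, 4.83 and 5.32 per kilobase of all annotated exons, and 20.5 and 24.2 RPM. Class A held, besides Dnaja1 and Dnaja2, Dnaja3 at 0.394 and Dnaja4 at 0.191 RPKM. In RPKM, class B was led by Dnajb5 at 12.1, ahead of Dnajb1 and Dnajb9. Dnajb6 at 161 led it on the transcript scale, followed by Dnajb5 at 35.3, Dnajb11 at 14.4 and Dnajb1 at 14.2. Its lowest gene above 0 was Dnajb13 at 0.00695 RPKM. In RPKM, class C was led by Dnajc9, a histone-binding J protein, at 12.5. It was followed by Dnajc5, the cysteine string protein of synaptic vesicles, at 7.48 RPKM, and by Dnajc30. Scaled to the transcript, Dnajc7 at 61.2, Dnajc8 at 46.4 and Dnajc5 at 39.4 all lay above Dnajc9 at 32.8. Dnajc6 (auxilin), which uncoats clathrin vesicles in neurons, stood at 0.676 RPKM, and Dnajc13, an endosomal J protein, at 0.789. On the transcript scale Dnajc6 and Dnajc5 drew closer, with a ratio of 0.471 in place of 0.0904 in RPKM. Among nuclear and ribosomal J proteins, Dnajc8 of the splicing machinery stood at 3.58, the ribosome-bound Dnajc2 at 1.73, Dnajc21 at 0.665 and Dnajc17 at 0.292 RPKM.

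Genes best known from the testis were mostly low, while the small HSPs best known from muscle were split. Of 11 testis genes 1 (9.09%) was at 1 RPKM or more, against 31.6% of all protein-coding genes. It was Dnajb3 at 2.41 RPKM, a single-exon gene of about 1 kb that lies within the Ugt1a genes on the opposite strand. The next were Hspa2 and Hspa1l, and the lowest above 0 was Dnajc5b at 5.03e-05 RPKM, an estimated 0.965 reads. The list's median over the 10 members above 0 was 0.118 RPKM. All 5 testis markers were under 0.1 RPKM, Tnp1 at 0. No small HSP reached 1 RPKM, against 31.6% of all protein-coding genes. The family median was 0.183 RPKM over 8 genes, near the 0.214 RPKM of all protein-coding genes. The 4 small HSPs best known from muscle, Hspb2, Hspb3, Hspb6 and Hspb7, had a median of 0.418 RPKM. Of these, Hspb6 and Hspb3 lay at percentiles 67.2 and 65.5 among protein-coding genes, and Hspb2 and Hspb7 at 32.3 and 22.4. In RPKM, Hspb6 was the highest of the family at 0.917, Hspb3 stood at 0.821, Hspb2 at 0.0157 and Hspb7 at 0.00216, the last on an estimated 1.84 reads. The highest on the transcript scale was another, Hspb11, at 9.5 (11.1 with the RefSeq span), against 2.20 for Hspb6. Hspb11 carries the family's name but is a part of the transport machinery of cilia, and stood at 0.219 RPKM. The 5 muscle markers summed to 0.0741 RPKM. Hspb6 overlaps 2 protein-coding genes on the opposite strand, and the labels do not say whether counting used strand. Cryab, the alpha crystallin akin to small HSPs, stood at 0.452 RPKM and Cryaa at 0.00294 RPKM.

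The regulators and helpers of these chaperones were mostly present. Hsf1, the factor that drives the heat shock response, stood at 1.72 RPKM and Hsf2, its relative active in the developing brain, at 2.11 RPKM, or 20.2 and 21.7 on the transcript scale. Hsbp1, which binds Hsf1, stood at 29.7 RPKM and Hsf4, a lens factor, at 0.0456. Of 19 cytosolic co-chaperones 16 (84.2%) reached 1 RPKM, against 31.6% of all protein-coding genes. The median of the 19 was 5.48 RPKM. They were led by Bag6, which handles tail-anchored proteins, at 26.7 RPKM and Fkbp4, an HSP90-bound immunophilin, at 23.5 RPKM (84.2 and 94.8 on the transcript scale). Bag3, an HSP70 partner that works with Hspb8 and is itself heat-inducible, was the lowest at 0.0734 RPKM. Bag3 and Hspb8 thus both lay under 0.1 RPKM. Of 4 organelle co-chaperones 3 reached 1 RPKM, led by the mitochondrial nucleotide exchangers Grpel1 at 3.54 and Grpel2 at 3.17 RPKM. The mitochondrial HSP90 gene Trap1, at 18.1 on the transcript scale, lay above both there.

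**Figure D4:**
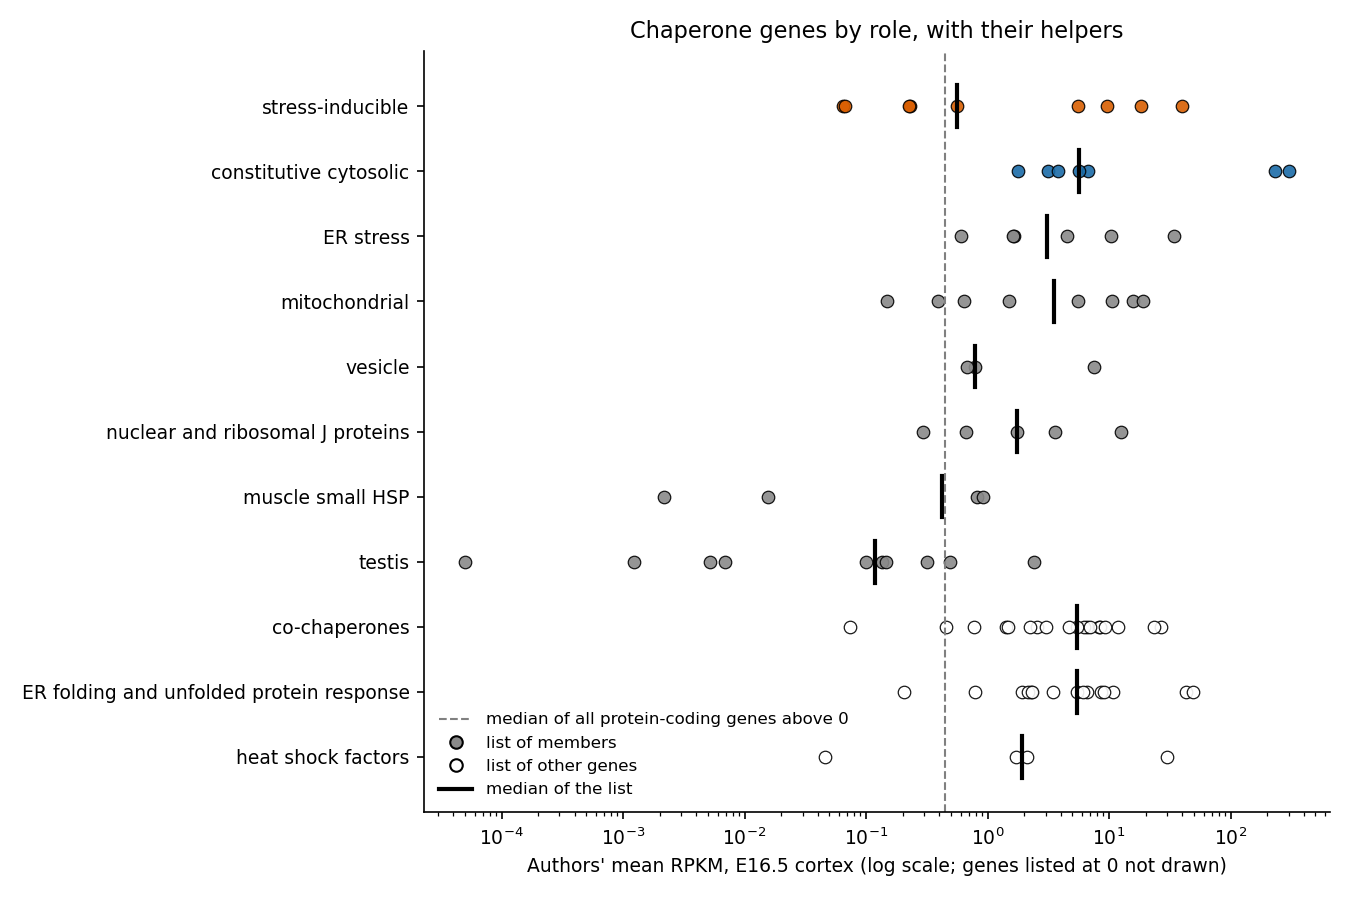
Each circle is 1 gene on a log axis of the authors' mean RPKM, filled for lists of members and open for lists of other genes, with a black tick at each list's median and a dashed line at 0.450 RPKM, the median of all protein-coding genes above 0. The stress-inducible circles split into a low and a high cluster, and their median of 0.560 RPKM lies a little to the right of the dashed line. The constitutive, ER and mitochondrial medians of 5.64, 3.1 and 3.52 RPKM lie farther to the right.

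Marker genes matched the labelled tissue. All 5 markers of cortical neurons lay between 22.6 and 194 RPKM, all 5 progenitor markers and all 3 forebrain markers were over 1 RPKM, and no meningeal marker was. Of 5 red blood cell genes 4 reached 1 RPKM, and together they summed to 171 RPKM. Of 5 microglial markers 1 reached 1 RPKM, but on the transcript scale all 5 read 1 or more, between 2.36 and 12.3. The part of blood, vessel and microglial cells in the chaperone levels was not tested.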

How the data were processed

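RNA was extracted with Trizol and RNeasy Micro columns and made into TruSeq libraries for a HiSeq instrument, per the labels' protocols. The RPKM values are 1 deposited column, named by the authors as a mean, for the E16.5 cortex group of 3 libraries. Per the submitters' processing notes the series used mm9 (NCBIM37) with DESeq 1.16.0, HTSeq 0.6.0, Cuffdiff 2.0.2, TopHat2 2.0.9 and Bowtie2 2.1.0. Which of them made the values, the length used, strand, whether intron reads were counted and the handling of reads with several matches are not stated in them.

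Gene IDs were matched to GENCODE M21, a later build: 32919 had a symbol, leaving 5072 without one that made up 2.30% of all RPKM. Read steps were counted within 0.5%, which gave the depth. Reads were RPKM times span times the summed depth, with exact Poisson intervals (95%), and 3 reads over a 1 kb gene would be 0.0160 RPKM. The step search was tested on simulated data. Shared sequence was the share of 50-base stretches of the principal transcript found in any other gene's transcripts. Python 3.11.15, pandas 2.3.3, numpy 2.4.6 and scipy 1.17.1 were used. No test was run: genes are not replicates.

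Members and lists were chosen with earlier results of these data known. Named were all genes of the stress-inducible, constitutive, ER stress and mitochondrial lists, of the 16 pairs and of CCT and prefoldin, of other member lists and families the 3 highest and the lowest above 0 in RPKM, and of lists that are not members the 2 highest, Hsf1, Hsf2, Cryab and Bag3. Hspa13, Hspb11, Dnajc21, Hsf4, Trap1 and the proteasome genes were named beyond that rule, after their values were seen.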

Additional observations from a re-analysis of the deposited data

How the results depend on the processing

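With 1 mean column, no library could be left out. No paired analysis was possible because the only column is a mean over libraries and carries no replicate number. The stress-inducible median minus the constitutive median ran between -6.44 and 1.22 on the log2 scale over the alternatives, and its size hangs on single genes, since the inducible list has 9 members in separate tiers. It was 1.22 among members at 1 RPKM or more (inducible median 13.98), -0.011 without Hspa1a and Hspa1b and again with Hspd1 and Hspe1 added (5.60 in both), -3.34 without each list's highest gene (0.396 against 4.73), -3.00 with means of log2 values (1.53 against 13.0), -2.09 and -3.31 with pseudocounts of 1 and 0.01, -4.29 per kilobase of exon (2.03 against 41.5), and -4.60 with CCT and prefoldin added to the constitutive list (15.9). Chosen after seeing the data, the transcript scale gave medians of 7.22 against 61.2, and a difference of -6.44 for genes whose spans differed by at most 5%. That last value rests on 4 of the 9 inducible genes and 5 constitutive genes. Of the inducible high tier it keeps only Dnajb1, without Hsp90aa1, Dnaja1 and Hsph1, and it leaves out Hspa8, so it reflects which genes were dropped. The coefficient of variation of CCT was 44.6% per kilobase of exon, 11.7% with no length, 20.9% on the transcript scale and 34.5% with Cct6a, the last 2 added after seeing the data. The members held 1.56% of the sum without mitochondrially encoded genes. Of 47 pair ratios under other lengths 6 turned direction: Dnajb1 to Dnajb6 was 0.312 per kilobase of exon, 0.165 with no length and 0.0883 on the transcript scale, Dnaja1 to Dnaja2 was 0.799 per kilobase of exon, and Hspd1 to Hspe1 was 1.52 per kilobase of exon and 2.73 with no length. The choice of length made these moves by construction, and where the inducible list lost or gained genes its median moved with the tier that holds the middle gene. Including members listed at 0 could not move either list, since neither has one. Counts of members at 1 RPKM or more ran from 35 at a limit of 2 RPKM to 66 on the transcript scale. Depth limits the lowest members, where a handful of reads sets the value.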
